A study of Homo sapiens with 15 samples.

Results

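The 10 genes described here encode surface proteins through which a tumour cell is seen by natural killer (NK) cells, T cells and macrophages: MICA, MICB, ULBP1, ULBP2, ULBP3, NCR3LG1, PVR, PVRL2, CD274 and CD47. They were chosen with earlier results of these data known, although the rule itself uses gene names and no measured value. Each matched 1 of the 19845 gene names in both deposited tables. Their RNA was followed in the breast cancer line HCC1954, which is human and labelled HER2-positive, and the labels name no genetic change or drug for any group. Pa is the parental line (3 libraries). The other 12 libraries are labelled brain tropic, with 4 of each kind: S-BM for synchronous metastases, Lat for the latent or residual population and M-BM for metachronous metastases. All libraries came from cells kept in culture overnight in a medium called R3F, so the levels are those of cultured tumour cells and not of cells in the brain. Host animals are not named in the labels, nor whether replicates came from different cultures. The p-values below therefore measure only the spread between libraries, which may be technical.

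NKG2D is an activating receptor of NK cells and of some T cells. MICA, MICB and the ULBP proteins, relatives of MHC class I, are its ligands, and they are known to be induced by stress, DNA damage and transformation. NCR3LG1 (B7-H6) is a ligand of another activating receptor, NKp30. PVR (CD155) and PVRL2 (CD112, nectin-2, now named NECTIN2) bind the activating receptor DNAM-1 and the inhibitory receptor TIGIT. CD274 encodes PD-L1, the ligand of the inhibitory receptor PD-1, and CD47 binds SIRP-alpha on macrophages and restrains phagocytosis. Fewer cells with a transcript and less transcript per cell cannot be told apart in bulk RNA.

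The ULBP genes lie in a cluster on chromosome 6 and did not share a pattern, and CD274 varied most within groups, so the promoters of these genes are printed for comparison. Each run is the 250 bases before the RefSeq start of the gene, read 5′ to 3′ on the gene's strand (GRCh38.p14). Capitals mark matches to any motif searched except the GC box. The regions are chr6:149963693-149963942 (+) for ULBP1, chr6:149941764-149942013 (+) for ULBP2, chr6:150069122-150069371 (−) for ULBP3 and chr9:5450292-5450541 (+) for CD274.
ULBP1: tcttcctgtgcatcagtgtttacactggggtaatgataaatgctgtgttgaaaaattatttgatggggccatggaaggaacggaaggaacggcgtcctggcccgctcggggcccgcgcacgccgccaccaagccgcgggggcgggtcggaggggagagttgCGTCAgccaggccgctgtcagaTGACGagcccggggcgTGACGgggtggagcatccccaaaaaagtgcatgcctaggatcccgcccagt
ULBP2: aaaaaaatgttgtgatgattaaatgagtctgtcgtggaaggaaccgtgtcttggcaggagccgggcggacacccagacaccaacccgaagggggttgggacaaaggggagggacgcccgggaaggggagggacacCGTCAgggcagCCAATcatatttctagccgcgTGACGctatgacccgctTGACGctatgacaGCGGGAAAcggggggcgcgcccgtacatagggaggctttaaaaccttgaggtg
ULBP3: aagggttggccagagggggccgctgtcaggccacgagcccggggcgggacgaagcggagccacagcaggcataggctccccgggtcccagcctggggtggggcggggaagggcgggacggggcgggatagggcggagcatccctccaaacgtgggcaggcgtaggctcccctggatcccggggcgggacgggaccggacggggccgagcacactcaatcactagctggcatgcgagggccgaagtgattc
CD274: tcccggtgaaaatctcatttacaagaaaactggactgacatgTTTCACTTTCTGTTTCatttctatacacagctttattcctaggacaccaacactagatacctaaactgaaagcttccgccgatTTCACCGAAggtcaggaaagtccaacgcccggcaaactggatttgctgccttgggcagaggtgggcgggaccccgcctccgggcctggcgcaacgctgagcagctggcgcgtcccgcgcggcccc
The ULBP1 window held 3 matches to the CRE core TGACG, bound by ATF and CREB family factors, between 47 and 89 bases before the start. ULBP2 also held 3, between 62 and 115 bases, with a CCAAT box (CCAAT) and an E2F site in addition. ULBP3 held none of these and 6 GC boxes (GGGCGG). CD274 held 2 interferon response elements (GAAANNGAAA), which overlap each other 193 to 208 bases before the start, and a gamma-activated site (TTCNNNGAA) whose letters match on both strands at the same place.

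A set of 10 motifs was searched on both strands in the promoters of all 10 genes and in 15841 promoters of the same length, and a match describes letters only. The CRE core stood in 3 of the 10 (ULBP1, ULBP2 and CD47), against 25.6% of all promoters. The GC box stood in 9 of 10 (56.0% of all), and PVR was the gene without it. The CCAAT box stood in MICA, MICB and ULBP2 (34.5%), the E2F site (TTTCCCGC, TTTCGCGC, TTTGCCGC or TTTGGCGC) in ULBP2 (3.72%), and the interferon response element (2.72%) and gamma-activated site (6.12%) in CD274. Windows of the 10 genes held no match to the AP-1 site TGANTCA (5.04%), the E-box CACGTG (7.84%), the heat shock element GAANNTTCNNGAA (0.335%) or the NF-kappa-B site (8.76%).

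Values are normalized counts, the reads of a gene divided by a factor per library. Reads assigned to genes ranged from 13.25 M to 21.84 M per library, and a count of 3 reads corresponded to a value of 0.136 to 0.225, a floor that covers counting error only. All 10 genes were above that floor in every library. Epithelial markers (6 of 6 found) summed to 5220 to 11300 per library, though KRT19 alone was at 5.81 to 20. The 3 NK cell markers found and the 4 leukocyte markers found were under 1 in every library. Marker sets of other cell types held both low and expressed genes. CSF1R (2.23 to 14.9), CD68 (8.64 to 30.9), SLC1A3 (32 to 428), MBP (75.5 to 150) and CDH5 (1.17 to 17.8) were above 1 in every library, Pa included. AIF1, TMEM119, GFAP and MOG did not exceed 0.114 in any library. The gene for HER2, ERBB2, stood at only 353 and 367 in 2 libraries, S-BM 3 and S-BM 4, where the remaining 13 ranged from 2801 to 4959; these 2 values go against the label of the line. S-BM 3 and S-BM 4 were also the closest pair of libraries, at a chi-square of 4.07 per gene where sampling noise gives about 1, followed by Lat 1 and Lat 2 at 4.86; other pairs of a group stood at 11.2 to 87.7. Results are therefore given also without S-BM 3 and S-BM 4 where that mattered, a choice made after the data were seen. Pa stands in a table of its own, so its values carry a factor of 1.0062 (from the ratios of 8841 genes found in both tables) and are set beside the others with no test. A difference between Pa and the other groups cannot be told apart from a difference between the tables.

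**Figure D1:**
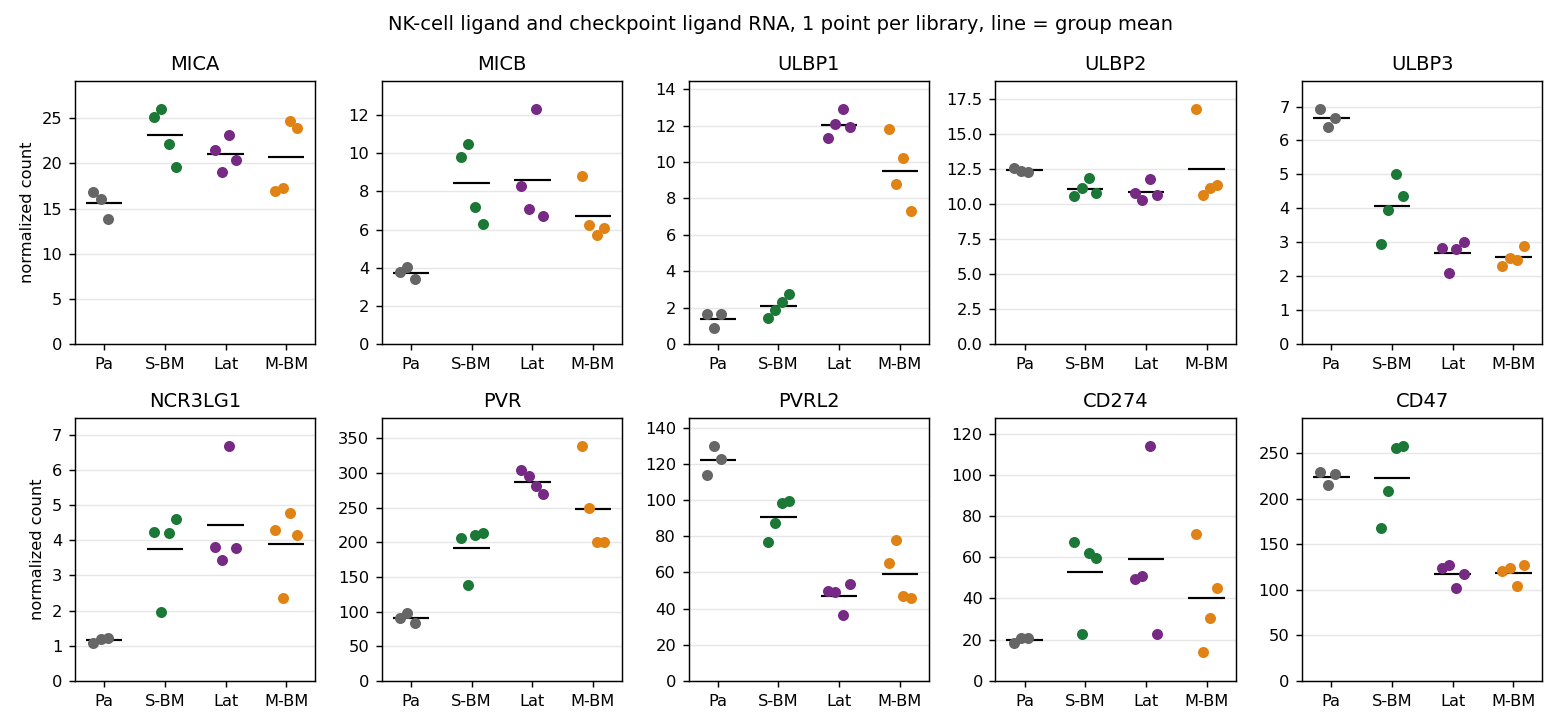
Normalized count (y axis, from 0, a different scale in each panel) of each of the 10 genes in every library, by group on the x axis; points are libraries and lines are group means, and Pa values are scaled. ULBP1 sits at 7.33 or more in all Lat and M-BM libraries and at 2.74 or less in all others, while CD274 spreads from 13.9 to 114 within the brain-derived groups.

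S-BM, Lat and M-BM were tested together with limma on log2(value + 1), on which scale fold changes and standard errors (SE) are given unless a ratio of means is named. Genes entered the test if 4 or more of the 12 libraries had a value of 10 or higher. That held for 7 of the 10 genes; MICB, ULBP3 and NCR3LG1 were too low. ULBP1 passed only through its 4 Lat libraries and 2 of its M-BM libraries, so among tested genes it had to differ between groups. Its tests are therefore given from the fit with a filter of 1, which all 12 libraries pass for this gene.

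Lat cells differed from S-BM cells in 4 of the 7 genes tested, with ULBP1 and PVR higher and PVRL2 and CD47 lower, at a Benjamini-Hochberg adjusted p of 0.05. Of all 9646 genes tested, 59.7% passed in this comparison, 30.2% higher and 29.4% lower, so the share of the 7 that changed is near that of any tested gene; leaving out ULBP1, it was 3 of 6. M-BM cells differed from S-BM cells in 3 of the 7, with ULBP1 higher and PVRL2 and CD47 lower, where 52.7% of all genes passed (26.9% higher, 25.8% lower). The F test over the 3 groups called ULBP1, CD47, PVRL2 and PVR, where 56.8% of all genes passed. Between Lat and S-BM, 4 of the 7 genes had values that did not overlap (54.5% of all genes), as did 2 of 7 between M-BM and S-BM (46.2%) and 0 of 7 between M-BM and Lat (7.3%). Both comparisons with S-BM share its 4 libraries and are not independent of each other. ULBP1, which had to differ to be tested, is also counted for M-BM against S-BM, in the F test and in both non-overlap counts against S-BM. Without it, each of these counts and its total is smaller by 1. Between M-BM and Lat, 0 of the 7 passed with limma, and edgeR and DESeq2 also called 0; 0 were below an unadjusted p of 0.05, where 1049 of all genes were. In that comparison 0.145% of all genes passed. At a filter of 1 in place of 10, 5 of the 10 genes were called for Lat, 4 for M-BM and 0 between them, where 57.9%, 50.9% and 0.202% of 12855 genes were. The median log2 fold change over all genes tested was 0.01 in each comparison.

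Among the ligands of NKG2D, ULBP1 changed most. Its normalized count was 1.42, 1.87, 2.32 and 2.74 in S-BM 1 to 4, and 11.3, 12.1, 12.9 and 11.9 in Lat 1 to 4. In M-BM 1 to 4 it was 11.8, 8.77, 10.2 and 7.33. Every Lat and M-BM library was above every S-BM library, while in Pa the scaled values of 1.66, 0.88 and 1.65 overlapped those of S-BM. These levels rested on 25 to 47 reads per S-BM library, 170 to 249 per Lat library, 154 to 240 in M-BM and 14 to 30 in Pa.

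From S-BM (2.09 ± 0.566, SD, n = 4) to Lat (12 ± 0.641, n = 4) ULBP1 rose 4.27-fold (log2 fold change 2.10, SE 0.16, limma adjusted p = 5.53e-07), and the ratio of means was 5.76. It rose 3.41-fold in M-BM (9.53 ± 1.93, n = 4; log2 fold change 1.77, SE 0.16, adjusted p = 3.78e-06). Because S-BM values are near the added 1, the size depends on the scale: for Lat the log2 fold change was 1.27 with 5 added and 2.53 with edgeR, and it was called under every alternative. M-BM was lower than Lat by 0.33 on the log2 scale, with a 95% interval from −0.67 to 0.02 and adjusted p = 0.502. The group order was Lat, M-BM, S-BM and Pa, and within it neither Lat and M-BM nor S-BM and Pa were separated by their libraries.

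ULBP1 lies on the plus strand of chromosome 6 from 149963943 to 149973715 (GRCh38, GENCODE 29). ULBP2 ends 14.7 kb before it (149942014 to 149949235, plus strand) and ULBP3 lies after it (150061053 to 150069121, minus strand). Of the 6 nearest tested genes, PCMT1, LRP11 and ULBP2 on one side and PPP1R14C, PLEKHG1 and MTHFD1L on the other, 0 were higher in Lat than in S-BM. LRP11 (log2 fold change −0.51), PPP1R14C (−0.91) and PLEKHG1 (−1.39) fell, with adjusted p up to 0.000117. Of all genes tested, 30.2% were higher and 29.4% lower, so a count over 6 genes says little about the region. The 6 neighbours did not show the rise seen in ULBP1.

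ULBP2, with 3 CRE cores in its promoter like ULBP1, ran from 10.6 to 11.9 in S-BM and from 10.3 to 11.8 in Lat. In M-BM it was 16.8, 10.7, 11.2 and 11.4 in libraries 1 to 4, so M-BM 1 stood above the rest. Neither difference from S-BM passed. For Lat the log2 fold change was −0.03 (95% interval −0.33 to 0.27, adjusted p = 0.866). For M-BM it was 0.14 (−0.16 to 0.44, adjusted p = 0.425). Pa stood at 12.3 to 12.6, between the lowest and highest of the other libraries.

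ULBP3, unlike ULBP1, was lower on average in Lat and M-BM than in S-BM. Its value was 2.96, 3.95, 5.02 and 4.36 in S-BM 1 to 4, 2.82, 2.1, 2.8 and 3 in Lat 1 to 4 and 2.31, 2.53, 2.48 and 2.90 in M-BM 1 to 4. S-BM 1 was the lowest S-BM library and overlapped Lat 4, while no M-BM library reached it. With the filter of 1, ULBP3 fell by 0.45 on the log2 scale in Lat (SE 0.15, adjusted p = 0.0194) and in M-BM (−0.50, SE 0.15, adjusted p = 0.0136). Both calls ended without the 2 ERBB2-low libraries, which were the highest for ULBP3 (−0.27, adjusted p = 0.214 for Lat and −0.32, adjusted p = 0.162 for M-BM). At that filter 28.9% of all genes were called lower for Lat and 25.4% for M-BM. The Pa libraries, at 6.41 to 6.92, were above all 12 others.

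The stress ligand MICA (chromosome 6, 31400711 to 31415315) showed no called difference between brain-derived groups. It was at 25.1, 26, 22.1 and 19.6 in S-BM 1 to 4, at 19.1 to 23.1 in Lat and at 16.9 to 24.7 in M-BM. The libraries of the 3 groups overlapped. The log2 fold change was −0.13 for Lat (95% interval −0.43 to 0.17, adjusted p = 0.442) and −0.17 for M-BM (−0.47 to 0.13, adjusted p = 0.331). Pa was at 13.9 to 16.8, below all 12 others, although its highest library lay just under M-BM 1 at 16.9.

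MICB, its neighbour on the same strand (31494918 to 31511124), was at 6.29 to 10.5 in S-BM and 6.70 to 12.3 in Lat, with M-BM at 5.74 to 8.81. With the filter of 1, its log2 fold change was 0.01 for Lat (95% interval −0.42 to 0.44, adjusted p = 0.967) and −0.28 for M-BM (−0.72 to 0.15, adjusted p = 0.259). Without the 2 ERBB2-low libraries, its difference for Lat turned to −0.25 (adjusted p = 0.372). Pa lay below all 12 libraries at 3.41 to 4.02, and S-BM had a mean 2.26 times that of Pa. MICA and MICB are similar genes. Of their 50-base stretches of exon, 1.89% of MICA's and 1.61% of MICB's are shared between them. Of 36-base stretches, 6.04% and 5.16% are.

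Per kilobase of exon, the 5 NKG2D ligands together were at similar levels in all groups while their make-up differed. The sum was 24.3 ± 0.967 normalized counts per kb in Pa (n = 3) and 25.8 ± 1.63 in S-BM (n = 4). It was 26.5 ± 2.36 in Lat and 26 ± 2.49 in M-BM (n = 4 each). These means lay within 1 SD of each other for the brain-derived groups. ULBP1 made up 1.83% ± 0.585 of the sum in Pa and 2.6% ± 0.82 in S-BM, but 14.5% ± 1.03 in Lat and 11.6% ± 1.81 in M-BM. The share of ULBP3 was 27.8% ± 0.923 in Pa and 16.0% ± 3.48 in S-BM, and it was lower in Lat (10.2% ± 1.34) and M-BM (10% ± 1.54). The lowest ULBP1 share in Lat or M-BM, 8.99%, was above the highest in S-BM, 3.66%. MICA and ULBP2 were the largest parts in all 3 brain-derived groups, at 30.5% to 37.6% each by group mean, and ULBP2 was the largest part in Pa at 38.0%.

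**Figure D2:**
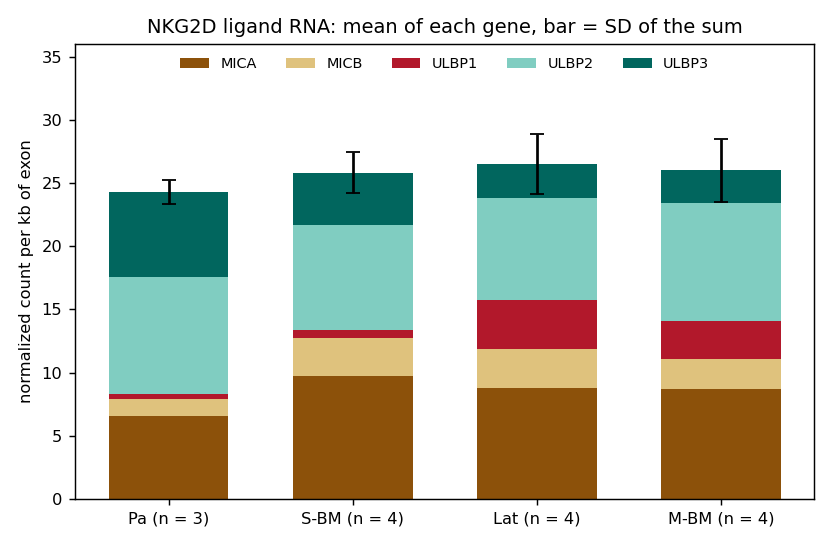
Mean normalized count per kb of exon (y axis) of the 5 NKG2D ligands, stacked, in each group (x axis); the bar on each stack is the SD of the sum over libraries. The stacks reach 24.3 to 26.5, and the ULBP1 layer is thin in Pa and S-BM and thick in Lat and M-BM.

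The level of some of these genes is less certain than their read numbers imply. Of the 50-base stretches in ULBP2 exons, 32.2% occur in other annotated genes, and 29.4% in RAET1L, a further NKG2D ligand. RAET1L itself was at 0.6 or less in every library. For ULBP1 and ULBP3, 6.85% and 12.4% occur in RAET1K. The remaining listed ligands were low: RAET1E reached 5.02 and RAET1G 2.62 at most.

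NCR3LG1, the NKp30 ligand (chromosome 11, 17351800 to 17381661), was the lowest of the 10 per kb in every group, at 0.180 ± 0.0123 normalized counts per kb in Pa and 0.582 to 0.686 by mean in the others. Its values were 4.22, 1.97, 4.2 and 4.60 in S-BM 1 to 4, 3.80, 3.43, 6.68 and 3.77 in Lat 1 to 4 and 4.28, 2.35, 4.77 and 4.14 in M-BM 1 to 4. S-BM 2 and M-BM 2 were low and Lat 3 was high, so the groups overlapped. At the filter of 1 neither difference passed; for Lat the log2 fold change was 0.20 (95% interval −0.32 to 0.72, adjusted p = 0.506). All 3 Pa libraries, at 1.07 to 1.21 and 16 to 22 reads, were below all 12 others. BAG6, which also binds NKp30 and was the tested gene of its list, fell 1.54-fold in Lat (269 ± 26.7 to 174 ± 10, adjusted p = 3.27e-05) and 1.43-fold in M-BM (187 ± 3.85, adjusted p = 0.000239).

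PVR and PVRL2, which share receptors, moved in opposite directions in Lat. PVR was at 206, 138, 210 and 214 in S-BM 1 to 4, at 304, 296, 281 and 269 in Lat 1 to 4 and at 339, 250, 201 and 200 in M-BM 1 to 4. All Lat libraries were above all S-BM libraries, whereas M-BM spanned both. PVR rose 1.52-fold in Lat (192 ± 35.9 to 288 ± 15.3; log2 fold change 0.60, SE 0.17, adjusted p = 0.00719). In M-BM (247 ± 65.5) its log2 fold change was 0.35 (95% interval −0.01 to 0.71) and did not pass (adjusted p = 0.0933). PVR passed the F test over the 3 groups (adjusted p = 0.0216), but not without S-BM 2 (0.0566) or without Lat 1 (0.0515). It also did not pass that F test with the closest pairs, S-BM 3 and 4 and Lat 1 and 2, averaged (0.0578). Without S-BM 2 the change in Lat was smaller, at 0.45, and was still called (adjusted p = 0.0209). Pa stood below all 12 others at 83.4 to 98.0, and the means of S-BM, Lat and M-BM were 2.11, 3.16 and 2.72 times that of Pa.

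PVRL2 was at 76.8, 87.4, 98.4 and 99.5 in S-BM 1 to 4, at 49.8, 49.0, 36.2 and 53.8 in Lat 1 to 4 and at 65.4, 77.9, 46.7 and 46.0 in M-BM 1 to 4. Lat lay wholly below S-BM, and M-BM 2 reached into the S-BM range. PVRL2 fell 1.91-fold in Lat (90.5 ± 10.6 to 47.2 ± 7.65; log2 fold change −0.93, SE 0.17, adjusted p = 0.000353). It fell 1.55-fold in M-BM (59.0 ± 15.5; −0.64, SE 0.17, adjusted p = 0.00652), a call that ended without the 2 ERBB2-low libraries (−0.50, adjusted p = 0.071). Pa was above all 12 others, at 114 to 130. In Pa, PVRL2 was the highest of the 10 genes per kb (32.6 ± 2.05, n = 3) and PVR stood at 25.8 ± 2.08, while PVR was highest in S-BM (54.5 ± 10.2), Lat (81.7 ± 4.35) and M-BM (70.3 ± 18.6). PVR (chromosome 19, 44643910 to 44666162) and PVRL2 (44846297 to 44889223) lie on the plus strand of the same chromosome. Exons of CEACAM19 cover 3.44% of PVR's exon bases and an antisense transcript covers 3.42% of PVRL2's, and the library kit does not mark strand.

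Other nectins and nectin-like proteins, adhesion molecules that bind DNAM-1, TIGIT, CD96 or CRTAM, made up the list around PVR and PVRL2. Of 6 genes on that list, all tested and PVR and PVRL2 among them, 3 were higher and 2 lower in Lat than in S-BM, with a median log2 fold change of 0.16 against 0.01 over all genes; in M-BM 2 were higher and 2 lower. Of all genes, 59.7% were called for Lat and 52.7% for M-BM. CADM1 and PVRL3, 2 of the 3 higher in Lat, had no S-BM library at 10. They passed the filter only through the groups where they were high, so among tested genes they had to differ. The counts and the median above include them and are no evidence about the list. Of the remaining genes, PVR was called higher in Lat, PVRL1 and PVRL2 were called lower and PVRL4 was not called. In M-BM, PVRL1 and PVRL2 were called lower, and PVR and PVRL4 were not called. The p-values of CADM1 and PVRL3 are from the fit with no filter. CADM1, the ligand of CRTAM, was at 0.45 to 2.33 in S-BM and at 15.9 to 34.1 in Lat, and it rose 11.6-fold (adjusted p = 6.78e-06). PVRL3 (nectin-3) was at 0.798, 0.506, 0 and 0 in S-BM 1 to 4 and at 12.2 to 21.2 in Lat (adjusted p = 3.34e-05). PVRL3 ran from 2.28 to 14.6 in M-BM (adjusted p = 0.000904). PVRL1 (nectin-1) fell 3.61-fold in Lat, from 118 ± 16.1 to 32.3 ± 7.05, and 2.93-fold in M-BM. Without S-BM 3 and S-BM 4, the counts were again 3 and 2 for Lat, with CADM1 and PVRL3 among the 3.

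CD47 fell in both Lat and M-BM against S-BM. Its value was 168, 208, 256 and 258 in S-BM 1 to 4, 124, 127, 102 and 117 in Lat 1 to 4 and 121, 124, 104 and 127 in M-BM 1 to 4. The highest Lat or M-BM library, at 127, was below the lowest S-BM library, at 168. CD47 (chromosome 3, 108043091 to 108091031, minus strand) fell 1.86-fold in Lat (222 ± 43.2 to 118 ± 11; log2 fold change −0.90, SE 0.13, adjusted p = 6.27e-05). It fell 1.84-fold in M-BM (119 ± 10.4; −0.88, SE 0.13, adjusted p = 0.000112). Within S-BM the ERBB2-low libraries were the higher ones; without them the changes were −0.67 (adjusted p = 0.00115) and −0.65 (0.00191). M-BM and Lat differed by 0.02 on the log2 scale (95% interval −0.27 to 0.30). Pa, at 229, 215 and 227, lay within the S-BM range.

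Of 5 tested genes on a list of phagocytosis signals that includes CD47, 4 fell and 0 rose in each of Lat and M-BM, with median log2 fold changes of −0.90 and −0.78; of all genes, 29.4% were lower in Lat and 25.8% in M-BM. CD24, a ligand of the inhibitory receptor Siglec-10, fell 3.58-fold in Lat, from 2520 ± 768 to 680 ± 26.7 (adjusted p = 5.69e-06). Calreticulin (CALR), which at the cell surface promotes uptake, fell 1.95-fold (547 ± 119 to 275 ± 16.7, adjusted p = 3.53e-05), so the genes that fell include one of opposite role. The MHC light chain B2M fell 1.30-fold (902 ± 77.1 to 694 ± 72.2, adjusted p = 0.00648), and without S-BM 3 and S-BM 4 its call ended for Lat (adjusted p = 0.0659) and for M-BM (0.212), leaving 3 of 5. QPCTL, the enzyme that modifies CD47 for binding to SIRP-alpha, did not pass (log2 fold change −0.15 in Lat, adjusted p = 0.454).

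**Figure D3:**
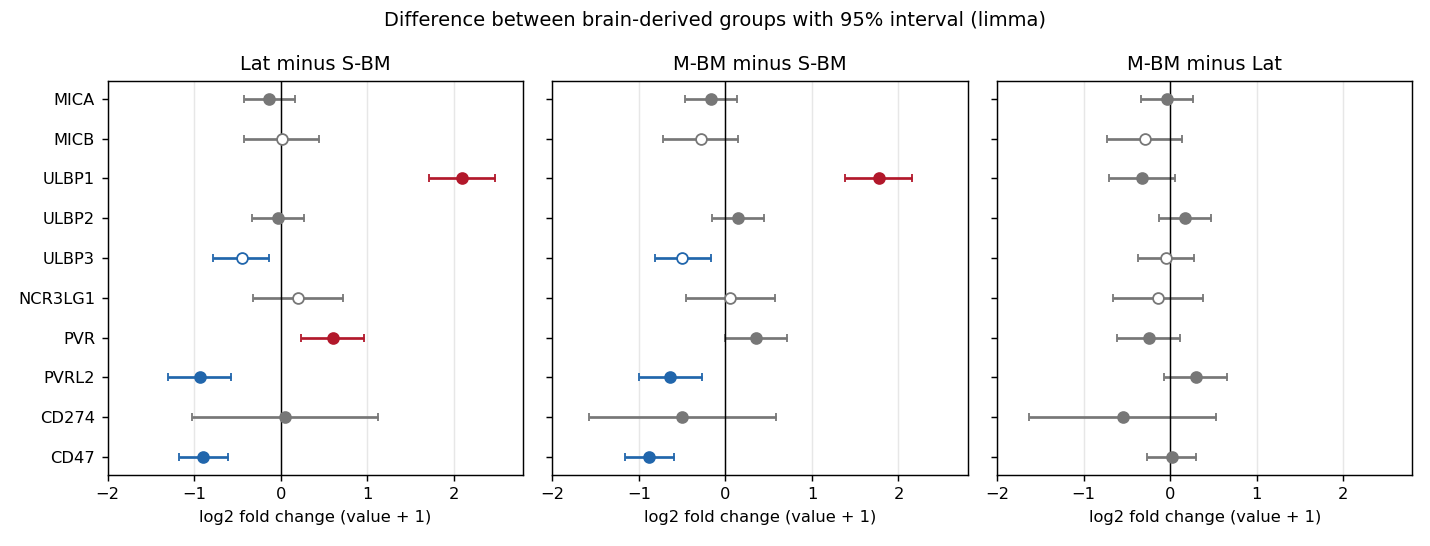
Log2 fold change of value + 1 (x axis) of each of the 10 genes (y axis) between brain-derived groups, with 95% intervals from limma. Filled points were tested at the filter of 10 and open points at the filter of 1; red marks called higher, blue called lower and grey not called. ULBP1 lies near 2 in the left and middle panels, PVRL2 and CD47 lie below 0 there, and no gene is coloured in the panel of M-BM minus Lat.

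CD274 (PD-L1; chromosome 9, 5450542 to 5470554, plus strand) varied more between libraries of a group than any other of the 10 genes in each brain-derived group. It was at 67.3, 22.9, 61.9 and 59.8 in S-BM 1 to 4, at 49.4, 50.9, 114 and 22.9 in Lat 1 to 4 and at 71.5, 13.9, 30.4 and 45.2 in M-BM 1 to 4. The highest library exceeded the lowest 2.94-fold in S-BM, 4.95-fold in Lat, 5.14-fold in M-BM, against 1.14-fold in Pa. The coefficient of variation was 38.3%, 64.9% and 60.7% in these groups and 6.96% in Pa. No group difference passed: the log2 fold change was 0.05 for Lat (95% interval −1.03 to 1.13, adjusted p = 0.937) and −0.50 for M-BM (−1.58 to 0.58, adjusted p = 0.422). These intervals still allow changes of 2-fold in either direction for Lat. Single libraries set the sign for Lat, which turned to −0.30 without S-BM 2 and to −0.33 without Lat 3. Pa was at 18.3 to 20.8, and of the 12 other libraries M-BM 2 alone was lower. None of the 50-base stretches of CD274 exons occur in another gene.

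PDCD1LG2, which encodes PD-L2, the other ligand of PD-1, starts 40 kb beyond CD274. It was at 21.6, 8.70, 30.2 and 28.0 in S-BM 1 to 4, at 8.58, 11.2, 24.2 and 9.07 in Lat 1 to 4 and at 15.3, 1.85, 4.04 and 10.8 in M-BM 1 to 4. Libraries low in CD274, such as S-BM 2 and M-BM 2, were low in PDCD1LG2, and Lat 3 was the highest Lat library of both. Pearson's r of log2(value + 1) was 0.84 over the 12 libraries, and 0.71 over 10 without Lat 3 and M-BM 2; the libraries share groups and growth conditions, and the r is a description. PDCD1LG2 fell 2.91-fold in M-BM (adjusted p = 0.0214), a call that ended without S-BM 3 and S-BM 4 (log2 fold change −1.03, adjusted p = 0.193). Pa was at 1.53 to 2.89, below every brain-derived library except M-BM 2.

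**Figure D4:**
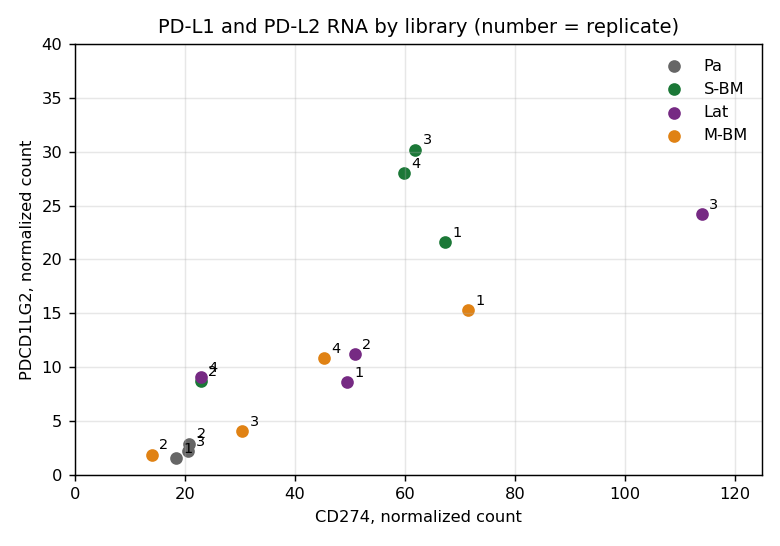
Normalized counts of CD274 (x axis) and PDCD1LG2 (y axis) in each library, coloured by group and numbered by replicate; Pa values are scaled. S-BM 2, Lat 4 and M-BM 2 lie low on both axes, Lat 3 lies farthest right at 114, and the Pa libraries lie together near 20 on the x axis.

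All 14 listed genes known to regulate PD-L1 were tested. In Lat 2 were higher and 8 lower than in S-BM, and in M-BM 2 were higher and 7 lower, with median log2 fold changes of −0.33 and −0.28; lower calls over all genes were 29.4% and 25.8%. CMTM6, which stabilises PD-L1 protein, fell 3.59-fold in Lat (377 ± 83.4 to 103 ± 9.43, adjusted p = 8.99e-07) and 2.58-fold in M-BM. The kinase JAK2, 321 kb before CD274, fell 2.12-fold in Lat (adjusted p = 0.000139), and the kinase CDK5 2.13-fold (1.6e-05). SPOP, an adaptor for PD-L1 degradation, rose 1.56-fold (5e-05). Their correlations with CD274 over the 12 libraries ran from −0.64 (CMTM4) to 0.73 (EGFR); without Lat 3 and M-BM 2 these were −0.03 and 0.57. Without S-BM 3 and S-BM 4, 6 of the 14 were lower in Lat.

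The wider list of B7 family members, galectins and other checkpoint ligands had 6 tested genes, of which 0 were higher and 3 lower in Lat, and likewise in M-BM; called genes of either direction made up 59.7% and 52.7% of all genes. VTCN1 (B7-H4), an inhibitory B7 protein of epithelial tumours, fell 8.35-fold in Lat (75.6 ± 29.7 to 7.81 ± 1.25, adjusted p = 1.29e-05 with no filter, since no Lat library reached 10) and 5.10-fold in M-BM. CD276 (B7-H3) fell 1.25-fold in Lat (adjusted p = 0.0112) and C10orf54 (VISTA) 1.64-fold (0.0163). Without S-BM 3 and S-BM 4 both of these calls ended for Lat (limma adjusted p = 0.0872 and 0.243), which left VTCN1 as the 1 gene called. VTCN1 passed the filter only through S-BM and M-BM libraries, so its call for Lat is no evidence about the list. For M-BM without S-BM 3 and S-BM 4, 1 gene was higher and 2 were lower, VTCN1 among the 2.

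Ligands of inhibitory NK receptors were mostly lower in Lat and M-BM. Of 6 tested genes, 1 rose and 5 fell in each, where 29.4% of all genes fell in Lat and 25.8% in M-BM. HLA-C, the main ligand of inhibitory KIR, fell 1.64-fold in Lat (162 ± 10 to 99.0 ± 10.5, adjusted p = 2.18e-05) and E-cadherin (CDH1), the ligand of KLRG1, 1.92-fold (2.19e-05). HLA-B fell 1.48-fold (0.000823) and HLA-E, the ligand of NKG2A, 1.46-fold (0.00138). B2M, described above, also belongs to this list and lost its call without the 2 ERBB2-low libraries, which left 4 that fell. HLA genes are similar in sequence, so reads may be split among them.

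**Figure D5:**
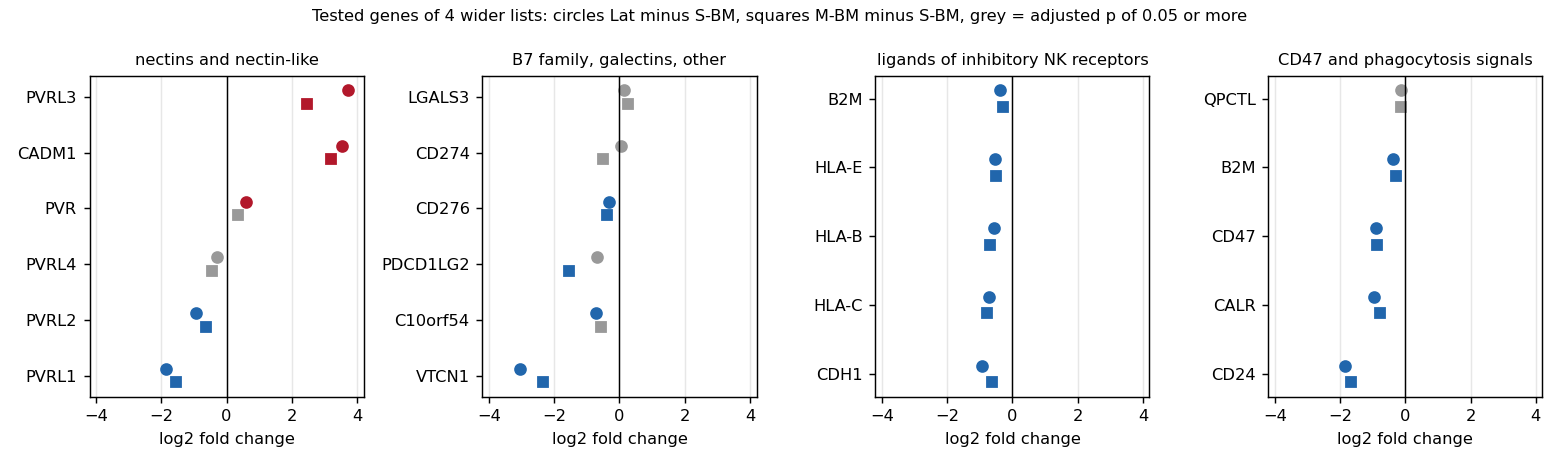
Log2 fold change of value + 1 (x axis) of tested genes of 4 wider lists (y axis; 1 gene of the inhibitory ligand list is not drawn); circles are Lat minus S-BM and squares M-BM minus S-BM, red is called higher, blue called lower and grey not called. PVRL3 and CADM1 lie to the right, VTCN1 lies farthest left, and most symbols of the inhibitory ligand and phagocytosis lists are blue.

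Genes around ligand expression and killing were mixed. Of 13 tested regulators of NKG2D ligand transcription or decay, 3 were higher and 2 lower in Lat, with a median log2 fold change of 0.01; 5 of 13 is below the 59.7% of all genes called. ATF4, a stress-response factor known to act on ULBP1, rose from 312 ± 28.7 to 578 ± 33.8 in Lat (1.85-fold, adjusted p = 2.66e-06) and to 548 ± 33.8 in M-BM (1.76-fold, 1.09e-05). The checkpoint kinase CHEK2 fell 1.98-fold in Lat (3.74e-06), and E2F1 rose 1.48-fold (0.00575). For Lat, DICER1 did not pass (adjusted p = 0.0795) except without the 2 ERBB2-low libraries (log2 fold change −0.31, adjusted p = 0.0322). In M-BM, DICER1 was called lower with all libraries kept (log2 fold change −0.30, adjusted p = 0.0156). Of 5 sheddases and processing enzymes, which release NKG2D ligands from the cell, 3 fell in Lat (any change: 59.7% of all genes): ADAM10 1.94-fold (1.92e-05), MMP14 3.52-fold (0.00238 with no filter, as no Lat library reached 10) and the disulphide isomerase PDIA6 1.57-fold (0.000182). MMP14 was at 29.7 and 30.5 in S-BM 3 and 4 and at 10.1 and 9.41 in S-BM 1 and 2. Its log2 fold change of −1.81 became −1.05 without S-BM 3 and 4. At the filter of 10, its limma adjusted p was 0.000758 with all libraries and 0.0112 without these 2. It passed that filter only through S-BM and M-BM libraries, so its call adds nothing to the count for Lat. ADAM17 and ADAM9 did not pass at adjusted p = 0.37 and 0.718, although ADAM17 passed without S-BM 3 and S-BM 4 (log2 fold change −0.38, adjusted p = 0.0156).

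The list around granule and death receptor killing holds both resistance genes and effectors of killing. Of its 13 tested genes, 6 rose and 4 fell in each of Lat and M-BM, where 59.7% and 52.7% of all genes were called. Those that rose include the death receptors TNFRSF10A (1.58-fold in Lat) and TNFRSF10B (1.29-fold). Those that fell include the protective SERPINB1 (1.73-fold in Lat) and CFLAR (1.28-fold), so the counts do not measure resistance. Without the 2 ERBB2-low libraries the counts were 6 and 5 for Lat and 5 and 5 for M-BM. FAS, among those that fell, passed the filter only through its S-BM libraries, as no Lat or M-BM library reached 10. It therefore had to differ to be tested, and its call adds nothing to these counts. With no filter its limma adjusted p was 0.002 for Lat and 0.00785 for M-BM. The survival factor MCL1 rose 1.84-fold in Lat (764 ± 65.6 to 1400 ± 50.1, adjusted p = 3.19e-06) and the inhibitor of apoptosis BIRC3 3.27-fold (0.000175), while the death effector BID fell 1.71-fold (0.000144). Of 5 complement regulators, 1 rose and 2 fell in Lat, a share at that of all genes. CD55 rose 2.99-fold (84.5 ± 6.73 to 254 ± 12.4, adjusted p = 2.05e-08), and the secreted protease CFI fell 11.7-fold (85.5 ± 17.3 to 7.67 ± 4.36, adjusted p = 2.44e-05). CD59, the other that fell, was no longer called without the 2 ERBB2-low libraries (adjusted p = 0.214), while CD46 then gained one (log2 fold change −0.35, adjusted p = 0.038). All 3 tested adhesion ligands of NK and T cells were called for Lat, where 59.7% of all genes were. ICAM1 fell 2-fold in Lat (limma adjusted p = 2.18e-05) and F11R 1.35-fold (0.00458), and CD58 rose 1.32-fold (0.0134). In M-BM 0 rose and 2 fell, where 52.7% of all genes were called, and CD58 did not pass (adjusted p = 0.0659).

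Several members followed patterns shared by many genes. Over the 12 libraries, the genes closest to ULBP1 were PPP2R2C, RASSF8 and MED30 (Pearson's r of 0.989, 0.988 and 0.987), and 839 of the genes tested had an r above 0.9 with it. WDR55, TRAFD1 and RIPK4 were closest to CD47 (0.986, 0.982 and 0.973; 428 genes above 0.9), and NOSIP, LY6E and MBOAT7 to PVRL2 (0.971, 0.968 and 0.968; 184 genes). MYO1E and ZNF496 were among the closest to PVR (0.951 and 0.942; 31 genes). For CD274, added after its values were seen, they were PLOD2, PTPN2 and EAF1 (0.932, 0.921 and 0.893), and 2 genes exceeded 0.9. These correlations are descriptions over libraries that share groups, so genes that separate S-BM from the rest correlate with each other.

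Set beside the parental line, 6 of the 10 genes had all Pa libraries outside the range of the 12 others, where 26.7% of 12711 genes did. MICA, MICB, NCR3LG1 and PVR were lowest in Pa (12.4% of all genes lay below) and ULBP3 and PVRL2 highest (14.3% lay above); the 6 were the same with the Pa values as deposited. ULBP1 and CD47 in Pa overlapped S-BM, and their means in Lat were 8.62 and 0.526 times those of Pa.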

How the data were processed

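RNA of 15 libraries was extracted with RNeasy and prepared with the TruSeq RNA v2 kit, per the labels' protocols. Reads were aligned to GRCh38 with Bowtie 0.12.2, per the submitters' processing notes; what the authors used to count and scale is not given in the sources. As deposited, values are normalized gene counts (signal), whole reads divided by a factor per library; whole reads were recovered for 100% of values within 0.05.

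The 12 brain-derived libraries entered 1 limma 3.58.1 fit (R 4.3.3, on log2(value + 1), 3 group means, trended variance, Benjamini-Hochberg over 9646 genes, two-sided), a procedure tested on simulated data. Alternatives were edgeR 4.0.16 and DESeq2 1.42.0 on recovered reads, other pseudocounts, filters and scalings, a replicate block and each library left out. Pa, normalized in another table, was not tested. Exon lengths and positions are from GENCODE 29, promoters from RefSeq GRCh38.p14 (all 10 genes matched). Up to 4 genes a list were named by F test, and 3 nearest in correlation for each gene passing it; some are not reported here. Members and lists were chosen with earlier results of these data known. QPCTL, ADAM17, CD46, CMTM4, EGFR and the genes alike CD274 were named after values were seen. The same holds for SERPINB1, CFLAR, FAS, TNFRSF10A, TNFRSF10B and the cell type markers named singly. It also holds for the removal of S-BM 3 and 4 and the averaging of closest pairs. Fits with a lower or no filter, quoted for genes absent from a group, were chosen after values were seen too.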

Additional observations from a re-analysis of the deposited data

Results flagged for a closer look

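In 6 of the 30 sets of 4 libraries examined (10 genes in 3 groups), a library stood apart by Dixon's test at the 95% level, which chance alone does in about 1 set in 20. MICB was at 8.81 in M-BM 1, with the other M-BM libraries at 5.74 to 6.23. ULBP2 was at 16.8 in the same library, with the others at 10.7 to 11.4. S-BM 2 was low in NCR3LG1 (1.97, others 4.2 to 4.6), in PVR (138, others 206 to 214) and in CD274 (22.9, others 59.8 to 67.3). Lat 3 was high in NCR3LG1, at 6.68 against 3.43 to 3.8. These are normalized counts, and no cause was tested.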

How the results depend on the processing

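Over 23 alternatives per comparison, ULBP1, PVR, PVRL2 and CD47 stayed called between Lat and S-BM, and ULBP1 and CD47 between M-BM and S-BM. PVRL2 between M-BM and S-BM lost its call (−0.50, adjusted p = 0.071) without the 2 ERBB2-low libraries, S-BM 3 and S-BM 4. Signs turned only for differences that were not called. For Lat against S-BM, leaving out a library gave −0.07 to 0.00 for ULBP2 (0.00 also after quantile normalization) and −0.33 to 0.42 for CD274 (−0.30 without S-BM 2). For M-BM against S-BM it gave −0.00 to 0.20 for ULBP2. For M-BM against Lat it gave −0.05 to 0.08 for CD47 (−0.00 without M-BM 2, −0.02 without M-BM 4) and −0.13 to 0.05 for MICA (0.01 without Lat 3, 0.04 without M-BM 2). For genes tested at a filter of 1, MICB for Lat against S-BM turned to −0.25 without S-BM 3 and 4, and both ULBP3 calls ended. The cause was not tested. Genes called between M-BM and Lat numbered 14, and 26 at a filter of 1, 24 with no filter, 5 with only these groups fitted, 141 with DESeq2, 3 with the closest pairs averaged and 3 to 30 with a library left out. Deviations from the group mean correlated at r from −0.272 to 0.319 between same-numbered libraries, with 4 of 12 pairs above 0.1. Between other-numbered libraries r ran from −0.305 to 0.322, with 7 of 36 pairs above 0.1. The ranges are alike, but so few pairs cannot exclude that the numbers pair the libraries. With the replicate block 4, 3 and 0 of the 7 genes and 5675, 5002 and 13 of all genes were called. Depth limits ULBP1 in S-BM, at 25 to 47 reads per library.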
